A study of Mus musculus with 8 samples.

Results

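The acute phase protein genes are 10 mouse genes for secreted proteins of the inflammatory response, namely the serum amyloid A genes Saa1, Saa2, Saa3 and Saa4, the pentraxin genes Crp and Apcs, the haptoglobin gene Hp, the orosomucoid genes Orm1 and Orm2, and the lipocalin gene Lcn2. They were taken by name, and all 10 were present among the 22028 protein-coding genes of the GENCODE M21 annotation. A region was counted for a gene when it overlapped the gene body or lay within 10 kb of it. By this rule 10 of the 8281 regions in the 2 deposited lists were near the acute phase protein genes.

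The regions come from ATAC-seq, in which a transposase inserts sequencing adapters into accessible DNA, and were measured in liver nuclei of adult C57BL/6 mice. The 4 control libraries came from mice that express Cre, and the 4 Alb-D2KO libraries from mice with floxed Dio2 alleles and Cre under the albumin promoter, which inactivates the type 2 deiodinase in hepatocytes and leaves other liver cells with the gene. Each library was made from 50000 nuclei. One list holds 8031 regions of reduced chromatin accessibility (RCAs), which were called in control liver and overlap no Alb-D2KO call, and the other holds 250 regions called only in Alb-D2KO liver. Each list was read as coming from a call pooled over the libraries of a genotype. No value therefore has a replicate error, depth per library is unknown, and all comparisons are descriptions without a test. Regions called in both genotypes are in neither list, so a gene without a listed region may still lie in open chromatin.

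Acute phase proteins are made mainly by hepatocytes and enter the blood at higher levels when tissue is injured or infected. Interleukin-6, acting through STAT3, and interleukin-1, acting through NF-kB, raise their transcription together with C/EBP factors, on top of hepatocyte factors such as HNF1 and HNF4. In mice, serum amyloid A and the pentraxin encoded by Apcs respond strongly, whereas Crp responds weakly.

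The sequences of 6 stretches are shown, which lie in most of the RCAs found: the 3 RCAs of the serum amyloid A cluster, the Crp promoter, 1 of 3 RCAs upstream of Hp, and the RCA between Orm1 and Orm2. The upstream Hp RCA shown held more motif matches than the others upstream of Hp, so it is not typical of them. The RCAs at the Hp start and in the Orm1 intron are not shown. All are from the GRCm38 (mm10) assembly, plus strand, with at most 300 bases of a region, and capitals mark matches to the motifs spelled out further on. The Crp promoter is the RefSeq entry up to the annotated start, and promoter entries were found for 8 of 10 members, with no entry for Hp and Orm1.
Saa3 and Saa4, RCA at chr7:46719573-46719919, bases chr7:46719616-46719915: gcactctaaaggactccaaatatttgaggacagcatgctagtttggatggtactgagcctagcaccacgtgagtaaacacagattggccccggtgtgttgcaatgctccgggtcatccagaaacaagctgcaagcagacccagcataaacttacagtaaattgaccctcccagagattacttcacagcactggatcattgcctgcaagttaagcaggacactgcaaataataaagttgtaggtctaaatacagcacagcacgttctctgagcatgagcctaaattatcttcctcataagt
Saa1 and Saa2, first RCA at chr7:46745867-46746196, bases chr7:46745897-46746196: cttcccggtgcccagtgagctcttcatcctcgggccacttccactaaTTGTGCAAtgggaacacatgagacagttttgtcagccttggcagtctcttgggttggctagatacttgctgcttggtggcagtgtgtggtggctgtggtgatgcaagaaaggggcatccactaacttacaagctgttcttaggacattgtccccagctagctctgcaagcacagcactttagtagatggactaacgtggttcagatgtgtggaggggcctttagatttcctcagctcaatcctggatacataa
Saa1 and Saa2, second RCA at chr7:46746451-46746757, bases chr7:46746451-46746750: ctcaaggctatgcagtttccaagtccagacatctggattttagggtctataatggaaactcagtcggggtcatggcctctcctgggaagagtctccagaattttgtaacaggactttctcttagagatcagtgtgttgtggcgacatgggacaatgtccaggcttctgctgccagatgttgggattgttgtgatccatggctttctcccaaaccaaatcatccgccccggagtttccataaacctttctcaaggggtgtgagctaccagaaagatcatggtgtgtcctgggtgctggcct
Crp, promoter under the RCA at chr1:172697537-172698328, bases chr1:172697806-172698055: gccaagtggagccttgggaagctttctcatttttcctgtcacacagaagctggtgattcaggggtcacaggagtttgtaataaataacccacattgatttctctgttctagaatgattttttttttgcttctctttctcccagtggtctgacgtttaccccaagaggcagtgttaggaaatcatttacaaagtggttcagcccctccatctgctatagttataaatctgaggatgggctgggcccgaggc
Hp, RCA and bases at chr8:109584880-109585179: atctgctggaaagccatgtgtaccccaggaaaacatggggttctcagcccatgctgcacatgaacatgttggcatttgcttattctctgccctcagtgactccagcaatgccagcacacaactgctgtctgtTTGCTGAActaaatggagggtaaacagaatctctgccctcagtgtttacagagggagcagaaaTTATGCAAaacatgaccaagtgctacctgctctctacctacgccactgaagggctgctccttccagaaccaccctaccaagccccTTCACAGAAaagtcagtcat
Orm1 and Orm2, RCA and bases at chr4:63357030-63357286: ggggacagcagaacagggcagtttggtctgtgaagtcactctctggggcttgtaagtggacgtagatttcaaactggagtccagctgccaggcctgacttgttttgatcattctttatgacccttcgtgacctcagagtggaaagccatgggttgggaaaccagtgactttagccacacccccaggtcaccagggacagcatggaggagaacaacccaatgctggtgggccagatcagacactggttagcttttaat

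An RCA lay within 10 kb of 8 of the 10 members, compared with 22.5% of 10282 other protein-coding genes of similar length, and the members without one were Apcs and Lcn2. Similar length means a body that differs by no more than 2-fold from that of at least 1 member. The GENCODE body of Crp, at 134977 bp, is far longer than the others and brings long genes into that comparison. Against genes similar in length to the other 9 members the background was 17.1% of 7171 genes, and against all 22018 other protein-coding genes it was 24.9%. The 8 members are not independent cases, since the serum amyloid A genes lie together, as do Orm1 and Orm2. Each RCA counted for Saa1, Saa2, Saa3, Saa4 or Orm2 was also counted for a neighbouring member. All 10 regions near the members were RCAs. The Alb-D2KO-only list had 0 regions within 10 kb of a member, where 1.04% of genes of similar length had one. With so low a share, 0 regions near 10 members does not set them apart from other genes. There were also 0 within 50 kb, a distance at which the share of other genes was not counted. The Alb-D2KO-only region nearest to any member was 251.581 kb from Lcn2.

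The 10 RCAs are not 10 independent regions per gene, since 4 of them were counted for 2 neighbouring members each. By annotation 2 were in the promoter class, which overlaps the 200 bp on either side of a start site, 0 in exons, 2 in introns and 6 in intergenic DNA. Among all RCAs 19.4% were promoter, 10.2% exon, 40% intron and 30.3% intergenic. Only Crp, Hp and Orm1 had an RCA over the gene body itself, against 13.4% of genes of similar length and 6.46% of those similar to the members other than Crp. Crp and Hp alone had one over the annotated start, and the share of other genes with an RCA there was not counted.

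**Figure D1:**
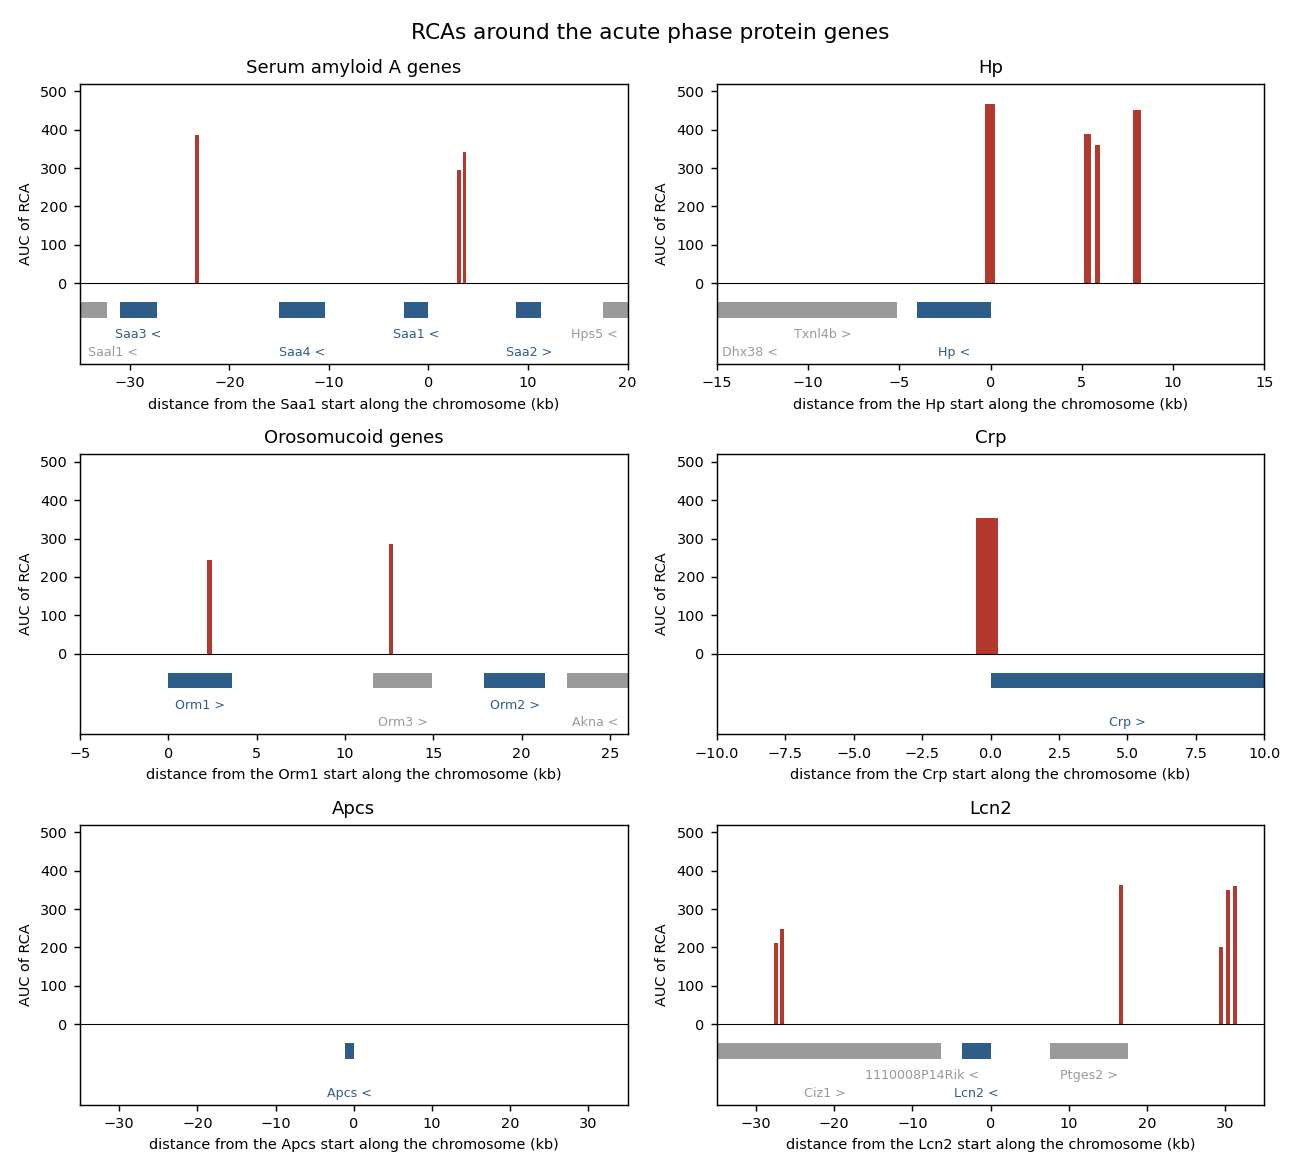
RCAs (red bars, height the AUC of the region, narrow ones widened to be visible) around the members (blue boxes) and protein-coding genes within 10 kb of them (grey boxes), against distance in kb from the start of the named member along the chromosome, with > and < for the strand and 1 panel for each locus. The Hp start and 3 sites upstream of it carried RCAs, the serum amyloid A RCAs lay between genes, Crp had 1 RCA at its start, and Apcs had none in the window shown.

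Serum amyloid A proteins are apolipoproteins of high-density lipoprotein that rise steeply in inflammation. The 4 genes lie together on chromosome 7, and all 4 had an RCA within 10 kb while none had one over the GENCODE body. Saa1 (chr7:46740497-46742980, minus strand) and Saa2 (chr7:46751790-46754313, plus strand) point away from each other with their bodies 8810 bp apart. Both RCAs of this pair lie in that interval, upstream of each gene. The first, chr7:46745867-46746196, is 330 bp wide with an AUC of 294. The AUC is the area under the curve of −log10 p over the region and grows with height and width. Its highest point, the summit, lies 3139 bp upstream of the Saa1 start and 5671 bp upstream of the Saa2 start. The second, chr7:46746451-46746757, is 307 bp wide with an AUC of 341 and follows after a gap of 254 bp. Its summit lies 3565 bp upstream of Saa1 and 5245 bp upstream of Saa2. The pair is nearer to the Saa1 start in both cases.

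Saa3 (chr7:46711998-46715700, minus strand) encodes a form made also outside the liver, and Saa4 (chr7:46727998-46732603, minus strand) encodes a constitutive form. A single RCA, chr7:46719573-46719919, was counted for both, being 3873 bp from the Saa3 body and 8079 bp from the Saa4 body. It is 347 bp wide with an AUC of 386, which is higher than that of 81.9% of all RCAs. Its summit is 3961 bp upstream of the Saa3 start and 12942 bp past the Saa4 start, beyond the end of Saa4. GENCODE places this RCA in intergenic DNA, but RefSeq has a predicted Saa3 transcript that starts at chr7:46719615, inside the RCA. The curated RefSeq start of Saa3, chr7:46715676, is 3897 bp away. With RefSeq bodies the number of members with an RCA over the body was therefore 4 rather than 3.

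The numbers of the RCAs rise along each chromosome, and they were read as numbers given to all control regions before the subtraction. By this reading 22368 regions were called in control liver, and numbers missing between neighbouring RCAs count control regions that are not RCAs, although rows could also be missing for other reasons. The 3 RCAs of the serum amyloid A cluster have consecutive numbers. Between the RCA upstream of Saa3 and the first RCA between Saa1 and Saa2 lie 25.947 kb that hold the bodies and starts of Saa4 and Saa1, with 0 missing numbers. If the numbering is read correctly, no control region was called at the Saa1 and Saa4 starts. The Saa2 start lies in a stretch of 83.181 kb between RCAs with 1 missing number, and the Saa3 start in one of 623.204 kb with 2. Of the 10 members, 2 (20%) had a start in a stretch with 0 missing numbers. These are Saa1 and Saa4, whose starts lie in the same stretch of 25.947 kb, so the count rests on a single stretch. Among 6848 other genes that have RCAs on both sides the share was 6.19%. Those genes are similar in length to the members other than Crp, whereas the 10 members include Crp.

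The pentraxins are ring-shaped pattern recognition proteins that bind phosphocholine and other ligands on microbes and damaged cells. Crp (chr1:172698055-172833031, plus strand) had 1 RCA, chr1:172697537-172698328, which covers its start. At 792 bp it was the widest of the 10 RCAs and wider than 97.6% of all RCAs, with 518 bp before the start and 274 bp in the gene, reaching over exon 1 into the intron. Its AUC was 353, or 0.445 per bp, the lowest of the 10 per base pair, whereas its −log10 q at the summit, 3.36, was the third highest of the 10. The summit is 363 bp upstream of the start, so that it falls before the promoter stretch printed above. Around the Crp RCA, the flanking RCAs are 78523 bp and 2223619 bp from the start, and 3 numbers are missing in between. RefSeq gives Crp a body of 1911 bp with its start 1 bp from the GENCODE start.

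Apcs (chr1:172893961-172895041, minus strand), which encodes serum amyloid P component, had no RCA within 50 kb. Its nearest RCA was the one at the Crp start, 195633 bp away. The stretch between that RCA and the next one holds the whole of Apcs, spans 2223.34 kb and has 1 missing number. On the reading above, at most 1 control region outside the list could lie near Apcs. Of the 1527 protein-coding genes of similar length to Apcs, 12.2% had an RCA within 10 kb.

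Haptoglobin binds free hemoglobin. Hp (chr8:109575128-109579172, minus strand) had 4 RCAs within 10 kb, the highest count among the members. The first, chr8:109578851-109579385, covers the start, with 213 bp before it and 322 bp in the gene including exon 1. It is 535 bp wide, its summit is 54 bp upstream of the start, and its AUC of 467 was the highest of the 10 and above that of 91.9% of all RCAs. The other 3 lie in intergenic DNA upstream. The RCA at chr8:109584314-109584671 is 358 bp wide with an AUC of 388 and has its summit 5294 bp upstream of the start. It had the highest −log10 q of the 10 regions, 3.71. After a gap of 208 bp follows chr8:109584880-109585179, 300 bp wide with an AUC of 361 and a summit at 5800 bp. The fourth, chr8:109586963-109587402, is 440 bp wide with an AUC of 451 and a summit at 7831 bp. The start nearest to this RCA is that of Dhodh, at 6649 bp, while the Hp body is 7791 bp away.

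The 4 RCAs counted for Hp have consecutive numbers, which on the same reading means that no other control region was called from the first to the fourth. Runs of at least 4 consecutive numbers hold 1897 of the 8031 RCAs (23.6%), and the longest run has 17. Among 5023 protein-coding genes of similar length to Hp, 18.3% had an RCA within 10 kb, 34 genes (0.677%) had at least 4, and 17 genes (0.338%) had a summed AUC at least as high as the 1667 of Hp. The genes nearest to Hp in summed AUC were Rpl18 with 1696 from 3 RCAs, Ifrd2 with 1620 from 5 RCAs and Gnat1 with 1736 from 3 RCAs. Downstream of Hp, Txnl4b ends 1077 bp away and Dhx38 lies 9267 bp away, and neither had an RCA over its body.

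Orosomucoids are plasma carriers of small lipophilic compounds. Orm1 (chr4:63344560-63348163, plus strand) had 2 RCAs within 10 kb and Orm2 (chr4:63362449-63365878, plus strand) had 1. The RCA at chr4:63346718-63347024 lies in intron 5 of Orm1, which has 6 exons. It is 307 bp wide, its summit is 2245 bp past the start, and its AUC of 243 was the lowest of the 10. The RCA at chr4:63357030-63357286 lies between Orm1 and Orm2, in intron 3 of Orm3, and was counted for both members. It is 257 bp wide, the narrowest of the 10, with an AUC of 286. It is 8867 bp from the Orm1 body and 5163 bp from the Orm2 body. The 2 regions have consecutive numbers and are 10005 bp apart, so on this reading no control region was called between them, the Orm3 start included. The Orm1 start lies in a stretch of 39.024 kb between RCAs with 1 missing number, and the Orm2 start in one of 45.758 kb with 2.

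Members of these families are copies of each other, and the authors removed poorly mapped alignments before calling, which include reads that match several places equally well. Saa1 and Saa2 promoters had 287 identical bases of 300 in an alignment, or 95.7%, and Orm2 and Orm3 promoters 88%. The best match of the Orm1 intron RCA elsewhere in the genome was in Orm2, at 91.3% identity over 85.7% of its length, and that of the Orm3 intron RCA was also in Orm2, at 88%. A copy was counted where 80% or more of an RCA aligned elsewhere with 95% or more identical bases, and 0 of the 10 RCAs had one. Whether reads at the promoters of the copies could be placed was not tested.

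Lipocalin 2 binds iron-loaded siderophores. Lcn2 (chr2:32384633-32388252, minus strand) had no RCA within 10 kb, whereas 17.6% of 4644 protein-coding genes of similar length had one. It had 6 within 50 kb, the nearest being chr2:32404776-32405004, 16524 bp upstream with an AUC of 363, in the exon class and within the body of Ptges2. The Lcn2 start lies in a stretch of 42.991 kb between RCAs with 3 missing numbers. These may be up to 3 control regions that were not lost. The regions closest to the limit of 10 kb on the inner side were that of Orm1 at 8867 bp and that of Saa4 at 8079 bp, and on the outer side 2 of Saa4 at 13264 bp and 13848 bp.

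**Figure D2:**
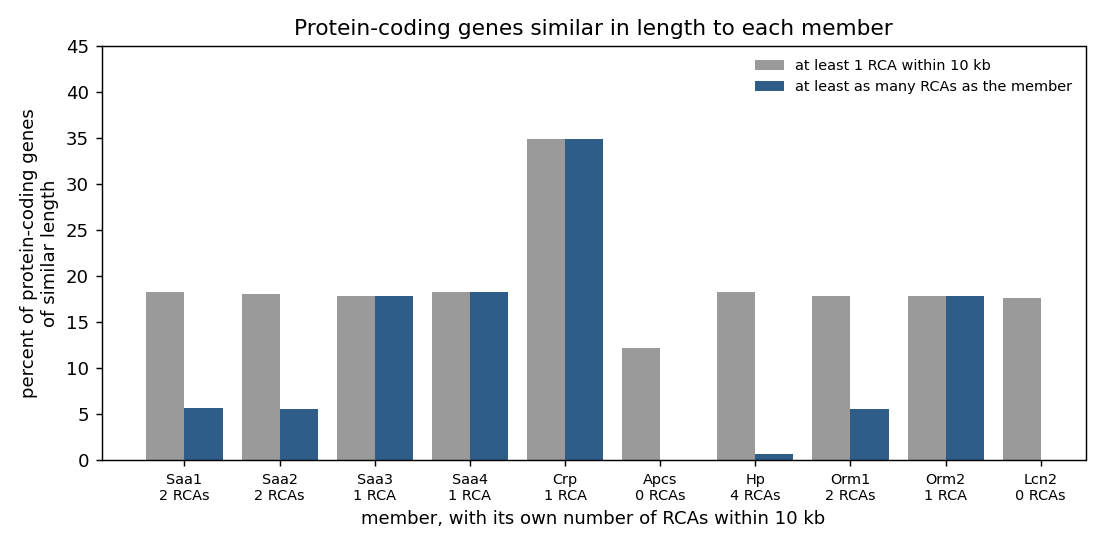
Percent of protein-coding genes of similar length to each member with at least 1 RCA within 10 kb (grey bars) and with at least as many as the member (blue bars, not drawn for Apcs and Lcn2, which have 0), with the member's own number under its name. The grey bars lie between 12.2% for Apcs and 34.9% for Crp, and the blue bar of Hp is the shortest at 0.677%.

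Taken member by member, the share of genes of similar length with an RCA within 10 kb lay between 12.2% for Apcs and 34.9% for Crp, whose RefSeq body is much shorter than its GENCODE body. Saa1 and Saa2 had 2 RCAs each, and 5.67% and 5.58% of genes similar to them in length had at least 2. For Orm1, also with 2, this share was 5.61%. Saa3, Saa4 and Orm2 had 1 RCA each, and 17.8%, 18.3% and 17.8% of genes similar to them in length had at least 1. The plot of genes by member length shows Hp furthest from its background.

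The AUC of the 10 RCAs had a median of 357 and ran from 243 to 467, while the median of all RCAs was 278 with quartiles of 232 and 351. Of the 10, 9 were above the median of all RCAs. An AUC of at least 300 was reached by 7 of 10 (70%), compared with 3276 of 8031 (40.8%). The 4 Hp regions and the Saa3 and Saa4 region were the highest 5. Widths had a median of 338.5 bp and ran from 257 to 792 bp, near the median of all RCAs of 326 bp. The −log10 q at the summit was between 2.98 and 3.71 with a median of 3.18, near the 3.14 of all RCAs. The GC content had a median of 49.2%, compared with 51.9% in all RCAs.

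**Figure D3:**
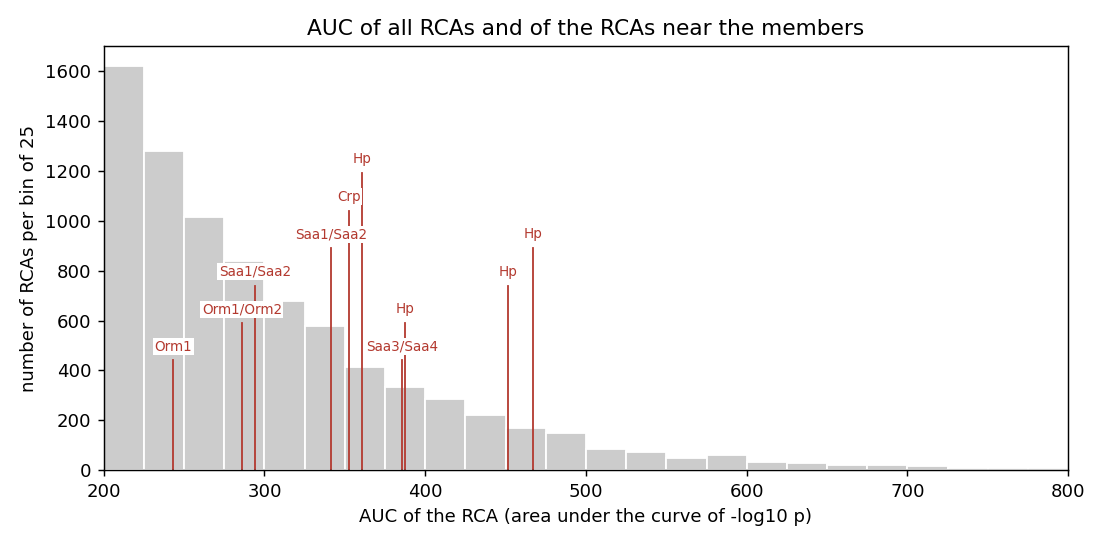
Number of RCAs in bins of 25 of the AUC (grey bars), with a red line for each of the 10 RCAs near the members, labelled with the members it was counted for and with heights chosen only to separate the labels. The members' RCAs lie between 243 and 467, and the axis leaves out 30 RCAs with an AUC of 800 or more.

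Motif letters were searched on both strands in windows of 300 bp around the RCA summits and in the 300 bp RefSeq promoters. They were TTCNNNGAA for STAT, TTGCNNAA for C/EBP, GGGANNTTC for NF-kB, GTTAATNAT for HNF1, CAAAGTCCA for HNF4, and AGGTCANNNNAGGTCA for the thyroid hormone receptor, a pair of its core letters spaced by 4 bases. STAT and NF-kB letters can share bases. The C/EBP letters were in 3 of 10 summit windows, all of Hp, and in 18.4% of the 8021 RCA windows on assembled chromosomes. They were TTGCACAA at the start, TTATGCAA in the RCA with its summit at 5294 bp, and TTGCTGAA with TTATGCAA in the RCA printed above. The fourth Hp RCA held the NF-kB letters, here as GGGATTTTC. The pattern GGGANNTTC in any form occurred in 3.8% of RCA windows. The STAT letters, in 10.3% of RCA windows, were in 0 of 10, although TTCACAGAA stands in capitals near the end of the printed Hp region, outside its summit window. Likewise TTGTGCAA in the first RCA between Saa1 and Saa2 lies outside its window. The HNF1, HNF4 and AGGTCA letters were in 0 of 10 windows, against 1.73%, 2.62% and 0.0249%.

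In the promoters, the C/EBP letters were present in 6 of 8 members, Saa1, Saa2, Saa3, Saa4, Orm2 and Lcn2, compared with 10.8% of 32851 promoters. No RCA overlapped any of those 6 promoters. The Crp promoter, which lies under an RCA, held none of the letters searched, and that of Apcs held the STAT letters, here as TTCTAGGAA. The STAT letters in any form were in 8.3% of promoters. The NF-kB letters, in 3.94% of promoters, and the HNF1, HNF4 and AGGTCA letters, in 0.801%, 0.475% and 0.0152%, were in 0 of 8. These matches describe letters in a window and say nothing of binding.

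The members were set beside lists of other genes grouped by role. Each share is followed by that of other protein-coding genes similar in length to the genes of the list. Of 28 other acute phase protein genes, 21 (75%, against 24.6%) had an RCA within 10 kb, among them Orm3, whose 2 RCAs are those also counted for Orm1 and Orm2, and the 5 with the highest AUC were Itih4 with 614, Agt with 420, Serpina1b and Serpina1d with the same region of 388, and C3 with 384. Of 10 negative acute phase genes, whose products fall in inflammation, 8 (80%, against 23.5%) had one, led by Apoa1 with 1253, Alb with 596, Ahsg with 542, Apoa2 with 485 and Serpina6 with 376. So within 10 kb the share of genes with an RCA among the members was equal to that among genes regulated the opposite way in inflammation. The number of distinct RCAs was not equal, with 10 near the members and 23 near the negative acute phase genes. An RCA over the body itself was found in 3 of 10 members and 7 of 10 negative acute phase genes, each against 13.4% of genes of similar length. The negative acute phase genes are longer, with a median of 8939 bp against 3612 bp, and the difference between the lists was not tested. In the pathway that induces the members, 22 of 34 genes (64.7%, against 25%) had one, led by Cebpa with 1737, Hnf4a with 737, Nr3c1 with 671, Tnfrsf1a with 598 and Il22ra1 with 442. Of 6 receptors and binding partners 2 (33.3%, against 26.3%) had one, Lrp1 with 353 and Slc22a17 with 309. Markers of other liver cell types had one in 4 of 28 genes (14.3%, against 25.1%), Pecam1 with 278, Cd79a with 233, Stab2 with 207 and Sox9 with 206. By cell type this was 2 of 5 endothelial (against 27.7%), 1 of 4 cholangiocyte (23.3%), 1 of 3 lymphocyte or leukocyte (25.1%), 0 of 5 Kupffer cell (27.4%), 0 of 5 stellate cell (25.2%) and 0 of 6 neutrophil markers (20.6%). The hepatocyte markers Alb, Ttr and Apoa1, which are also in the list of negative acute phase genes, had 2, 1 and 5 RCAs within 10 kb. Among all other protein-coding genes 24.9% had at least 1. The number of regions open in control liver near each gene, which limits how many can be lost, is not known from the lists, and its part in these shares was not tested.

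**Figure D4:**
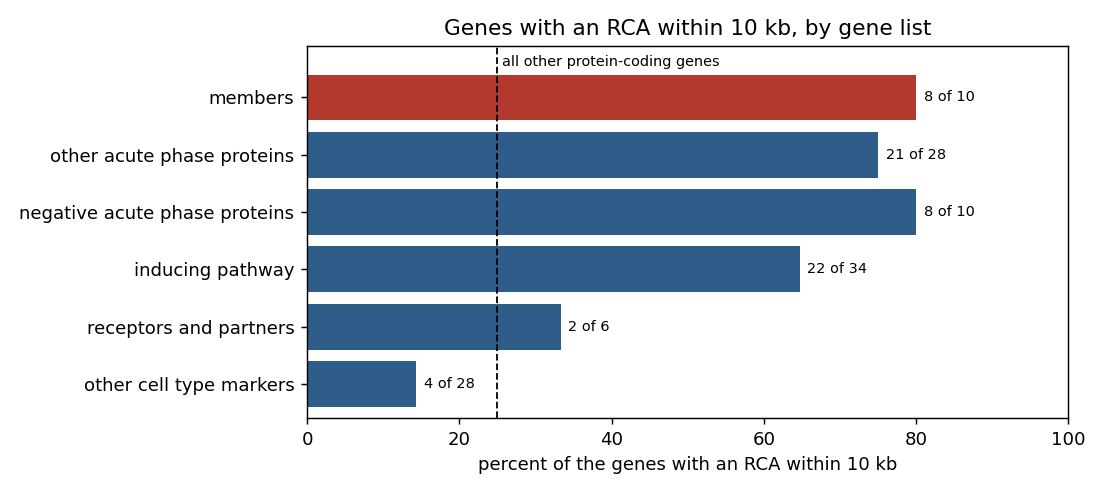
Percent of genes in each list with an RCA within 10 kb, with the counts beside the bars and a dashed line at the 24.9% of all other protein-coding genes. The members (red) and the negative acute phase protein genes both reach 80%, and the markers of other cell types lie below the line at 14.3%.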

How the data were processed

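The authors removed adapters with NGmerge and aligned paired-end reads to mm10 with BWA 0.7.17. They dropped duplicates, alignments that mapped poorly, and those that were supplementary or chimeric. Regions were called with Genrich 0.6 on grouped samples, leaving out blacklisted regions. The grouping was read as a call for each genotype, since the lists hold regions unique to each. Regions overlapping a region of the other genotype were then subtracted. In the deposited lists the signal is the AUC of −log10 p over a region, and the authors' −log10 p and −log10 q are those at its highest point. The deposited score equals the signal per base pair times 1000, rounded to a whole number, up to a ceiling of 1000, in 8031 of 8031 RCAs, and was not used further. The lists give no sequencing depth.

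Genes came from GENCODE M21, a release for the same build other than the one the authors used. Classes were taken in the order promoter, exon, intron, intergenic, with an overlap of 1 bp. Sequence came from RefSeq GRCm38.p6, and copies were found with blastn 2.17.0 (megablast). Counting was tested on simulated data. The members and lists were chosen with earlier results of these data known. Named genes were all members, genes near them, the 5 genes per list with the highest AUC, the hepatocyte markers, and the 3 genes nearest to Hp in summed AUC. Dhodh, Ptges2 and the genes under Other observations were named after their values were seen. Alternatives covered distance, AUC, q, width, merging, midpoint, gene start, similar length, promoter window and annotation.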

Additional observations from a re-analysis of the deposited data

How the results depend on the processing

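With a distance of 0 kb, 3 RCAs were near 3 members (Crp, Hp and Orm1) and 13.4% of genes of similar length had one, with 5 kb 6 RCAs near 5 members and 18.7%, and with 50 kb 18 RCAs near 9 members and 40.1%. The share of genes of similar length was 11.8% with an AUC of at least 300, 17.9% with q under 0.001, 19.9% with widths of at least 200 bp, 15.3% by distance to the gene start, 20.4% with a narrower range of lengths, and 24.9% for all protein-coding genes. It was 17.1% without Crp, 6.46% without Crp over gene bodies and 19.3% with RefSeq lengths, all chosen after seeing the data, as were the RefSeq bodies, which left 10 RCAs near 8 members. The members with an RCA were 6 with an AUC of at least 300, where Orm1 and Orm2 had none, and 7 by distance to the gene start, where Saa4 had none. A promoter window of 3000 bp gave 5 promoter RCAs in place of 2. The median AUC was 353 over gene bodies and 347 within 5 kb, and the median width over bodies was 535 bp. The count of Alb-D2KO-only regions was 0 under each of its 9 alternatives. This outcome was fixed beforehand, because the nearest such region lay 251.581 kb from a member and no alternative reached beyond 50 kb. In 34 of the comparisons with an alternative the value stayed within its limit, and in 21 it moved. These limits differed between results, so the tallies do not measure the size of the changes. With an AUC of at least 300, 7 RCAs in place of 10 stayed within the limit. Over gene bodies, a median AUC of 353 in place of 357 counted as moved. No paired analysis was possible because the lists hold no values per library. For the same reason no library could be left out, differences between animals cannot be judged, and a region just under the calling threshold in Alb-D2KO liver counts as lost.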

Other observations

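Within the lists, shares are given here for some roles, a choice made after the values were seen, and differences between roles were not tested. The cytokine genes that start the acute phase response, with a median length of 6570 bp, had an RCA within 10 kb in 0 of 7 cases, compared with 22.3% of protein-coding genes of similar length. With so few genes, 0 of 7 does not set the cytokine genes apart from that share. Their receptors and receptor subunits, with a median length of 55265.5 bp, had one in 7 of 8, with Osmr the gene without, compared with 27.7%. Transcription factor genes of the pathway had one in 8 of 9, with Cebpd the gene without, compared with 24.9%, and Cebpa and Cebpb had 5 and 4 RCAs. The fibrinogen genes, which lie together on chromosome 3 like the serum amyloid A genes on chromosome 7, had one in 3 of 3 cases, compared with 22.1%. These were 6 distinct RCAs, with 3 counted for Fga, 4 for Fgb and 1 for Fgg, and the region with the highest AUC was the same for Fga and Fgb.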
